A study of Homo sapiens with 12 samples.

Results

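The 10 genes described here encode the enzymes and cofactors that write, copy, remove and act on DNA methylation and the repressive histone marks. They are DNMT1, UHRF1, DNMT3A, DNMT3B, TET1, TET2, TET3, EZH2, SETDB1 and TRIM28, chosen by symbol, and each was found as 1 of the 60660 genes of the deposited tables. DNA methylation is placed on cytosines followed by guanine, and at promoters and repeats it usually goes with silence of the DNA below it. DNMT3A and DNMT3B place new marks, UHRF1 binds DNA methylated on only a single strand after replication and brings DNMT1, which copies the pattern to the new strand, and the TET enzymes oxidise methylated cytosine, which opens the way to its loss. EZH2 is the catalytic subunit of Polycomb repressive complex PRC2 and methylates lysine 27 of histone H3, while TRIM28 (KAP1) is brought to retroelements by zinc finger proteins and recruits SETDB1, which methylates lysine 9 of histone H3. In prostate cancer EZH2 is known for its high level in advanced tumours, and DNA methylation for the silencing of genes such as GSTP1. In germ cells, piRNAs can guide DNA methylation and histone methylation to transposons.

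The libraries were made from total RNA of LNCaP and 22Rv1, 2 established human prostate cancer cell lines. Cells of each line were transfected with a negative control oligonucleotide (NC-mimic) or with a synthetic mimic of the piRNA piR-hsa-4447944 (piR-4447944 mimic), and every group was kept in androgen-deprived medium with charcoal-stripped serum. There were 3 libraries in each of the 4 groups, 12 in all, and the study asked which mRNAs change with the piRNA. The mimic is a transfected, chemically modified RNA, so that its level need not equal that of a piRNA the cells make, and the level of the piRNA was not analysed here. The study says of its experiments in general that they were repeated independently, but the labels do not say whether the 3 libraries of a group came from separate cultures, so that p-values measure the spread between libraries, which may be technical.

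The promoters of 4 of these genes, chosen by the expression results below, are shown, and no result below rests on the sequences. DNMT1 and UHRF1 were low in the same 22Rv1 library as genes of DNA replication, EZH2 had the largest difference between the lines, and DNMT3B was the gene called with the mimic in LNCaP on edgeR estimates. Each line is 300 bases of the gene's strand, 5' to 3', 250 bases before to 50 after a RefSeq start, on GRCh38.p14. Capitals mark a match, on either strand, to TTGGCGC, or to the form TTCCCGC, or to the form TTCGCGC, or to the form TTGCCGC, all core forms of the site of E2F factors, which drive genes of S phase. Overlapping matches were counted apart.
DNMT1 (chr19:10194904-10195203, minus strand): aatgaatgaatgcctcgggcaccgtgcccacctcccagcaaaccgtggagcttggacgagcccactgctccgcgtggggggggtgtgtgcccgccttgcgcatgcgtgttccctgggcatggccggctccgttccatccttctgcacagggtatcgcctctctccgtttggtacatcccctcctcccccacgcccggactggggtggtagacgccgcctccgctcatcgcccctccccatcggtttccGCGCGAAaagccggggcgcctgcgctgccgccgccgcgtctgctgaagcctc
UHRF1 (chr19:4909251-4909550, plus strand): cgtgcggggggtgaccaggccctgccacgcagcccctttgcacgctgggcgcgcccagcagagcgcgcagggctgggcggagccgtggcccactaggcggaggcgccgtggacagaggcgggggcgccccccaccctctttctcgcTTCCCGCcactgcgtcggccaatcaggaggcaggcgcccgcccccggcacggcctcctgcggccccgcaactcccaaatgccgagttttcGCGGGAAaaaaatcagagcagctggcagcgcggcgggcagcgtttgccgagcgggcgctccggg
EZH2 (chr7:148884242-148884541, minus strand): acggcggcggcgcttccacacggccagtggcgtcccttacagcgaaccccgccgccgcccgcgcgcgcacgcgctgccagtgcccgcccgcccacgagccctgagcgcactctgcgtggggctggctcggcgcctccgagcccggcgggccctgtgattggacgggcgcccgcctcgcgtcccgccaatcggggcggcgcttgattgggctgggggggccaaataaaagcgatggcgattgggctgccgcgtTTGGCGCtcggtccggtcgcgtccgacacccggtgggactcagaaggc
DNMT3B (chr20:32779602-32779901, plus strand): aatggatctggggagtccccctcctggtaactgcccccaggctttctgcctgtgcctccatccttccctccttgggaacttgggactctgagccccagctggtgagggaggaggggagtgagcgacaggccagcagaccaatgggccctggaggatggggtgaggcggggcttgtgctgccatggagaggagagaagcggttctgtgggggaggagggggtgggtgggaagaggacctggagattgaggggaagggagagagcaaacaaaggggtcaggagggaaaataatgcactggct

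The DNMT1 window holds 1 match, 2 bases before the start, and 30 CpG. The UHRF1 window holds 2 matches, 104 and 14 bases before the start, and 36 CpG, and of the other 2 UHRF1 windows 1 holds 1 match. EZH2 has 1 match 2 bases after the start and 46 CpG in the window shown, and none in its other window. The DNMT3B window, the single one given for this gene, holds 3 CpG and no match. It begins at 32779602, while the annotated gene starts at 32762385. It thus surrounds a start inside the gene, and the DNA at the annotated start was not examined. The windows shown for DNMT1, UHRF1 and DNMT3B lie inside the annotated span of the gene, which starts further upstream, and that of EZH2 covers its annotated start. TET3 has 1 match, 132 bases before the start, in 1 of 2 windows, and none was found in the windows of DNMT3A, TET1, TET2 or SETDB1. TRIM28 had no entry. Such a match is present in 4553 of 35116 RefSeq promoters of the same length, 13% of them, and in 14 of the 22 windows of 19 S phase genes (63.6%). A match is a run of letters, and says nothing of binding in these cells. A link between matches and expression was not tested.

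On hg38, DNMT1 lies on chromosome 19 from 10133342 to 10231286 on the minus strand, UHRF1 on chromosome 19 from 4903080 to 4962154 (plus), and TRIM28 on chromosome 19 from 58544064 to 58550722 (plus). DNMT3A is on chromosome 2 from 25227855 to 25342590 (minus), TET3 on chromosome 2 from 73984910 to 74108176 (plus) and DNMT3B on chromosome 20 from 32762385 to 32809359 (plus). TET1 is on chromosome 10 from 68560337 to 68694487 (plus), TET2 on chromosome 4 from 105145875 to 105279816 (plus), EZH2 on chromosome 7 from 148807257 to 148884321 (minus) and SETDB1 on chromosome 1 from 150926263 to 150964744 (plus). Expected counts are estimates of the reads of a gene, over all its isoforms. Exons of DNMT1 overlap those of S1PR2 on the same strand, exons of TET3 overlap the long non-coding RNA ENSG00000235499 on the same strand, and exons of SETDB1 overlap CERS2 on the other strand. The strand setting of the counting is not given in the sources used here, so reads in these stretches cannot be assigned with certainty. Expected counts of DNMT1 and TET3 were whole numbers in every library, with 3827 and 1519 in LNCaP NC-mimic replicate 1. Those of SETDB1 (1338.63) and UHRF1 (1028.31) were fractional there. Fractions were found in every library for SETDB1 and in most for UHRF1, so some of these reads were split by estimate.

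The libraries held between 12161091 and 22179601 expected counts, which are estimated reads per gene. Replicate 3 of the 22Rv1 cells stood apart from replicates 1 and 2: a chi-square of the counts, per gene, was between 37.7 and 106 in pairs with replicate 3 and 8.40 or 7.23 between replicates 1 and 2, against 3.43 to 15.03 within LNCaP. Results in 22Rv1 are therefore given with and without it. The luminal markers KLK3, KRT8 and KRT18 were all at 1 TPM or more in every library, and the basal markers KRT5, KRT14 and TP63 stayed below 1 TPM in every library. KLK3 was between 1828 and 2268 TPM in LNCaP and between 24.8 and 53.4 TPM in 22Rv1. With the mimic it was lower in 22Rv1 by the rule given below (log2 fold change -0.76, adjusted p = 0.999, edgeR). The leukocyte marker PTPRC and the endothelial marker PECAM1 stayed at or below 0.35 TPM. Of the fibroblast genes, COL3A1 reached 1.26 TPM, while COL1A1 lay between 25.0 and 42.9 TPM in LNCaP and between 4.23 and 21.7 TPM in 22Rv1. In bulk RNA, fewer cells of a type and less RNA per cell cannot be told apart.

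All 10 genes were detected in every library, at levels that spanned a wide range. TPM are transcript abundances scaled by length to the same total in each library, so that levels of different genes can be set side by side. The order was led by TRIM28, with 420 ± 38.2 TPM in LNCaP with NC-mimic and 551 ± 5.74 TPM in 22Rv1 with NC-mimic (mean ± SD, n = 3). DNMT1 came second in all 4 groups, with 58.2 ± 1.95 TPM in LNCaP and 87.2 ± 10.98 TPM in 22Rv1 with NC-mimic. In LNCaP SETDB1 came next, and DNMT3A, EZH2 and UHRF1 followed at values that overlapped between neighbours. In 22Rv1 with NC-mimic EZH2 came next, above SETDB1, UHRF1 and DNMT3A in that order, and no neighbours among these overlapped. TET3, TET2 and DNMT3B followed in every group, and of these neighbours TET3 with TET2, and TET2 with DNMT3B, overlapped in 22Rv1 with NC-mimic alone. TET1 was the lowest in all 4 groups, between 0.61 and 1.39 TPM, on 71 to 157 expected counts per library. DNMT3B rested on 137 to 296 expected counts per library and the other 8 genes on more.

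**Figure D1:**
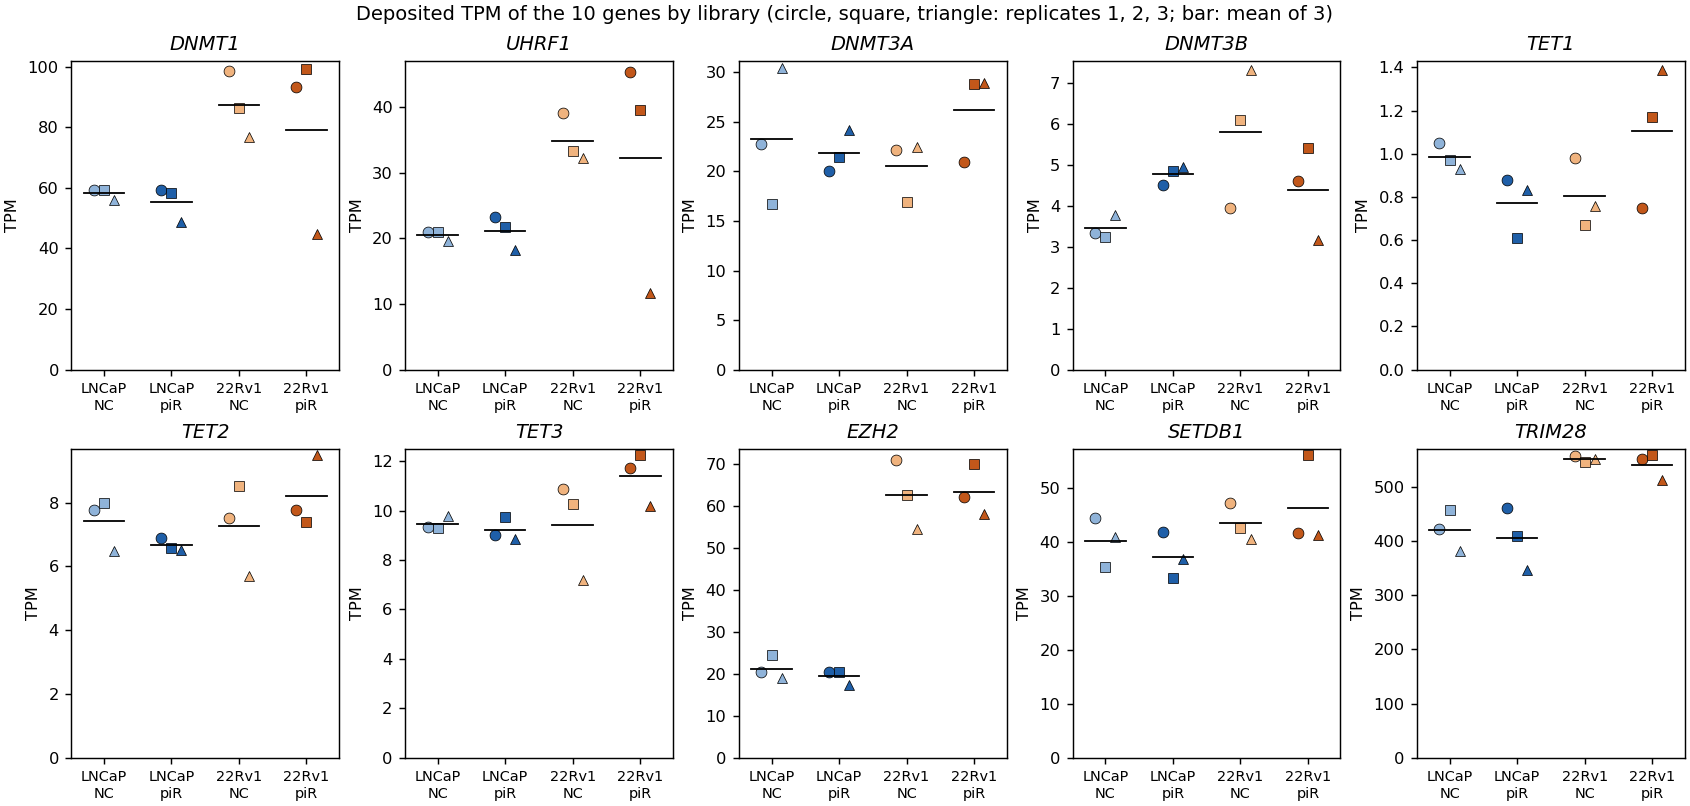
Deposited TPM (linear axes from 0) of each gene in each library, with replicates 1, 2 and 3 as circles, squares and triangles and the mean of 3 as a bar, for LNCaP and 22Rv1 with NC-mimic (NC) or piR-4447944 mimic (piR). EZH2, with 17.3 to 24.4 TPM in LNCaP and 54.6 to 70.9 TPM in 22Rv1, separates the lines, and the triangle of 22Rv1 with the mimic lies far below the other 22Rv1 libraries for DNMT1 and UHRF1.

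A gene was called when its unadjusted p was below 0.05 and its log2 fold change larger than 0.2 in either direction. The study set these cut-offs on DESeq2 fold changes after shrinkage, and here they were set on edgeR estimates without shrinkage. In LNCaP DNMT3B, a de novo methyltransferase, was called higher with the mimic, and none of the other 9 genes was called. With shrunken DESeq2 fold changes, the form the study used, DNMT3B was at 0.12 and none of the 10 was called. DNMT3B was at 3.35, 3.24 and 3.78 TPM with NC-mimic and at 4.51, 4.86 and 4.95 TPM with the piR-4447944 mimic. All 3 mimic libraries were above all 3 control libraries. The fold change was 1.43, or 0.52 ± 0.14 on the log2 scale (estimate ± SE), which met these cut-offs but not the adjustment over all genes (adjusted p = 0.999, edgeR quasi-likelihood test with Benjamini-Hochberg adjustment over 16244 genes). By unadjusted p it ranked 19 of 16244. By this rule 2.22% of all genes tested in LNCaP were called, so that 1 call among 10 genes does not set the group apart. No gene of the 16244 had an adjusted p under 0.05, and 433 had an unadjusted p under 0.05. DNMT3B stayed called when each of the 6 libraries was left out in turn, with log2 fold changes between 0.45 and 0.63. It was not called with the spread estimated over all 12 libraries (0.52, adjusted p = 1, edgeR).

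TET1, the lowest of the dioxygenases, went the other way in LNCaP without meeting the rule. It was at 1.05, 0.97 and 0.93 TPM with NC-mimic and at 0.88, 0.61 and 0.83 TPM with the mimic, so that the groups did not overlap. Its log2 fold change was -0.35 ± 0.19 (adjusted p = 0.999, edgeR). In an exact two-sided permutation test of 3 against 3 libraries, DNMT3B and TET1 both had p = 0.1, the smallest value the design allows. Of all genes tested in LNCaP, 7.95% had groups that did not overlap by CPM, the counts scaled by library size, and DNMT3B and TET1 were 2 of 10. The other 8 genes had overlapping groups and log2 fold changes between -0.13 for TET2 and 0.08 for UHRF1. DNMT3A, the other de novo enzyme, was at 22.7, 16.8 and 30.5 TPM with NC-mimic and at 20.0, 21.5 and 24.1 TPM with the mimic, and the control libraries alone spanned more than the difference of the means. The ratio of DNMT3A to DNMT3B TPM was therefore 6.79, 5.17 and 8.06 in the control libraries and 4.44, 4.42 and 4.88 in the mimic libraries.

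In 22Rv1 the mimic called none of the 10 genes by the same rule, against 1.48% of all genes tested, and DESeq2, shrunken or not, also called none. DNMT3B was at 3.96, 6.11 and 7.33 TPM with NC-mimic and at 4.61, 5.41 and 3.17 TPM with the mimic. The groups overlapped, and the log2 fold change was -0.46 ± 0.33 (adjusted p = 0.999, edgeR). TET2 had the smallest p of the 10 and was at 7.53, 8.53 and 5.71 TPM with NC-mimic and at 7.77, 7.39 and 9.49 TPM with the mimic. Its log2 fold change on counts was 0.31 ± 0.16 (adjusted p = 0.999, edgeR). TET1 was at 0.98, 0.67 and 0.76 TPM with NC-mimic and at 0.75, 1.17 and 1.39 TPM with the mimic, a log2 fold change of 0.38 ± 0.31, and TET3 at 10.9, 10.3 and 7.18 TPM and at 11.7, 12.2 and 10.2 TPM, a log2 fold change of 0.21 ± 0.18. Both overlapped between the groups. Without replicate 3 of both groups the log2 fold changes were smaller, 0.15 for TET2, 0.18 for TET1 and 0.16 for TET3. DNMT3A was at 0.23 ± 0.18 with all libraries and at 0.04 without replicate 3 of both groups. No gene of the 16898 tested in 22Rv1 had an adjusted p under 0.05, and 250 had an unadjusted p under 0.05. The libraries of 1 replicate number deviated together in 22Rv1, though those of replicates 1 and 2 did so across numbers too (correlations of 0.269 and 0.142). With the number as a block 420 genes and none of the 10 were called. The main fits are unpaired. Pairs here are libraries of like number, and the labels do not say that these belong together. DNMT1 was lower with the mimic in each of the 3 pairs, from 321 to 287, from 312 to 301 and from 241 to 109 CPM, and its blocked log2 fold change was -0.45 (adjusted p = 0.869, edgeR). TET2 was higher in each pair, from 53.5 to 54.5, from 43.2 to 52.5 and from 43.9 to 68.6 CPM. TET3 was higher too, from 92.4 to 102, from 92.5 to 104 and from 65.0 to 84.5 CPM. So was DNMT3A, from 74.0 to 74.6, from 80.9 to 84.2 and from 78.6 to 117 CPM. TRIM28 was lower in each pair, from 577 to 551, from 590 to 560 and from 500 to 476 CPM. The share of all genes that moved the same way in every pair was not counted. UHRF1 was at -0.38 with the block (adjusted p = 0.869, edgeR). In TPM, which takes account of the assigned length, DNMT1 and TRIM28 were higher and TET2 lower with the mimic in the pair of replicate 2. DNMT3A was lower by TPM in the pair of replicate 1. Groups did not overlap by CPM for 8.71% of all genes and for none of the 10.

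DNMT1 and UHRF1, the maintenance pair, show what a single library did in 22Rv1. DNMT1 was at 98.5, 86.4 and 76.6 TPM with NC-mimic and at 93.4, 99.1 and 44.9 TPM with the mimic. UHRF1 was at 39.1, 33.3 and 32.2 TPM with NC-mimic and at 45.3, 39.6 and 11.6 TPM with the mimic. Replicate 3 with the mimic was the lowest 22Rv1 library for both genes, and the other 2 mimic libraries lay within or above the controls. The log2 fold change of DNMT1 was -0.33 ± 0.37, and without that library 0.02. For UHRF1 it was -0.17 ± 0.46, and without that library 0.25. Without replicate 3 of both groups it was -0.10 for DNMT1 and 0.18 for UHRF1, and the DNMT3B value went to -0.01. None of these values met the rule.

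The fall in that library was steeper in CPM than in TPM for DNMT1. It was 109 CPM in replicate 3 with the mimic, against 287 and 301 CPM in the other 2 mimic libraries, while the length RSEM assigned to the gene, a mean over its isoforms weighted by their share, was 3456 bases there and between 4133 and 4876 bases in all other libraries. Relative to the mean of the 22Rv1 controls in log2 CPM, replicate 3 with the mimic was at -1.41 for DNMT1, -1.71 for UHRF1 and -0.96 for DNMT3B. EZH2 was at -0.20, TRIM28 at -0.22 and SETDB1 at 0.07 in the same library, and DNMT3A was at 0.59, TET1 at 0.71 and TET2 at 0.56. Genes of S phase were at -1.49 as the mean of 19, and the 7 demethylases of lysine 27 and lysine 9 of histone H3 at 1.10. In replicates 1 and 2 with the mimic, these 2 lists were at 0.08 and 0.11 and at -0.08 and 0.11. COL1A1 was at 21.7 TPM against 4.23 to 11.8 TPM. The part of these differences in the values of the 10 genes was not tested.

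**Figure D2:**
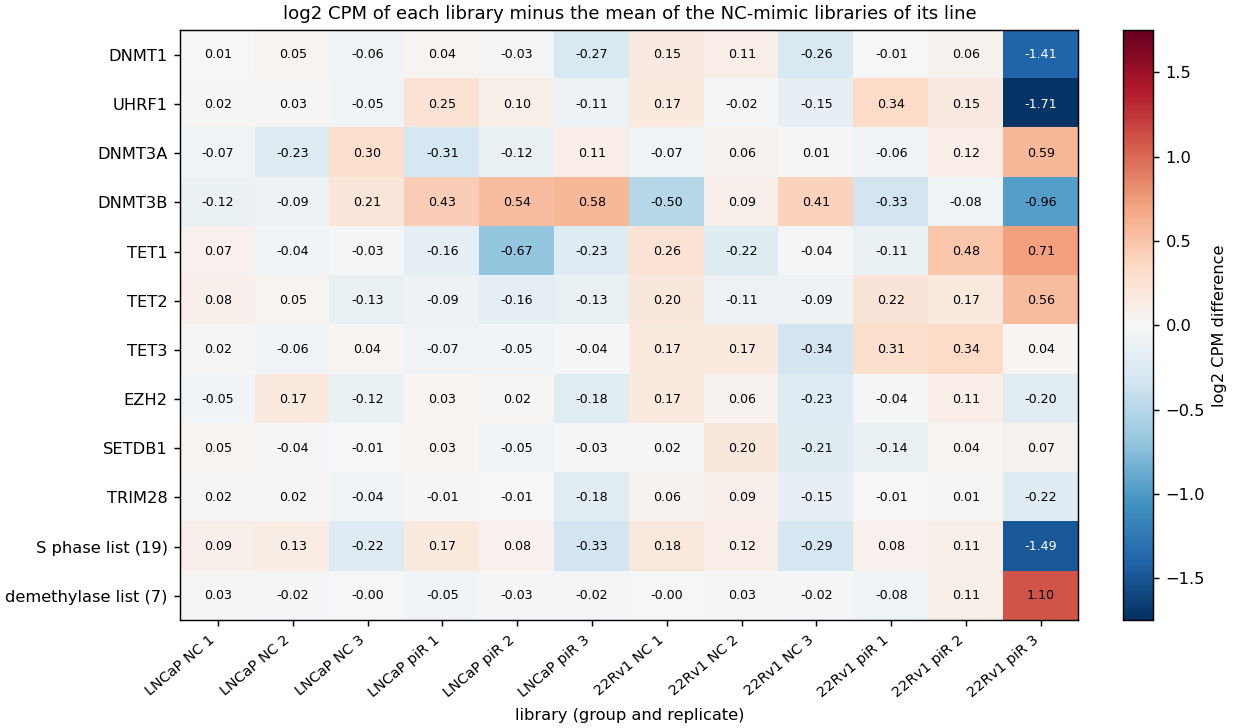
Colours and printed values give log2 CPM of each library (columns) minus the mean of the 3 NC-mimic libraries of its line, for the 10 genes and the means of the S phase and demethylase lists (rows). Replicate 3 of 22Rv1 with the mimic is at -1.41 for DNMT1 and -1.71 for UHRF1, beside -1.49 for the S phase list and 1.10 for the demethylase list, while the 3 LNCaP mimic libraries are above 0 for DNMT3B.

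EZH2, SETDB1 and TRIM28 had close values with and without the mimic in both lines. EZH2 was at 20.4, 24.4 and 19.04 TPM with NC-mimic and at 20.4, 20.5 and 17.3 TPM with the mimic in LNCaP, and at 70.9, 62.7 and 54.6 TPM and at 62.2, 70.1 and 58.2 TPM in 22Rv1. Its log2 fold change was -0.05 ± 0.10 in LNCaP and -0.05 ± 0.15 in 22Rv1. SETDB1 had log2 fold changes of -0.02 ± 0.07 and -0.02 ± 0.14, and TRIM28 of -0.07 ± 0.07 and -0.08 ± 0.14. Without replicate 3 of both 22Rv1 groups the 22Rv1 values were -0.07 for EZH2, -0.15 for SETDB1 and -0.06 for TRIM28. The groups of all 3 genes overlapped in both lines. For these genes the standard errors in 22Rv1 were larger than in LNCaP, and the common biological coefficient of variation over all genes was 0.343 in 22Rv1 and 0.0964 in LNCaP.

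**Figure D3:**
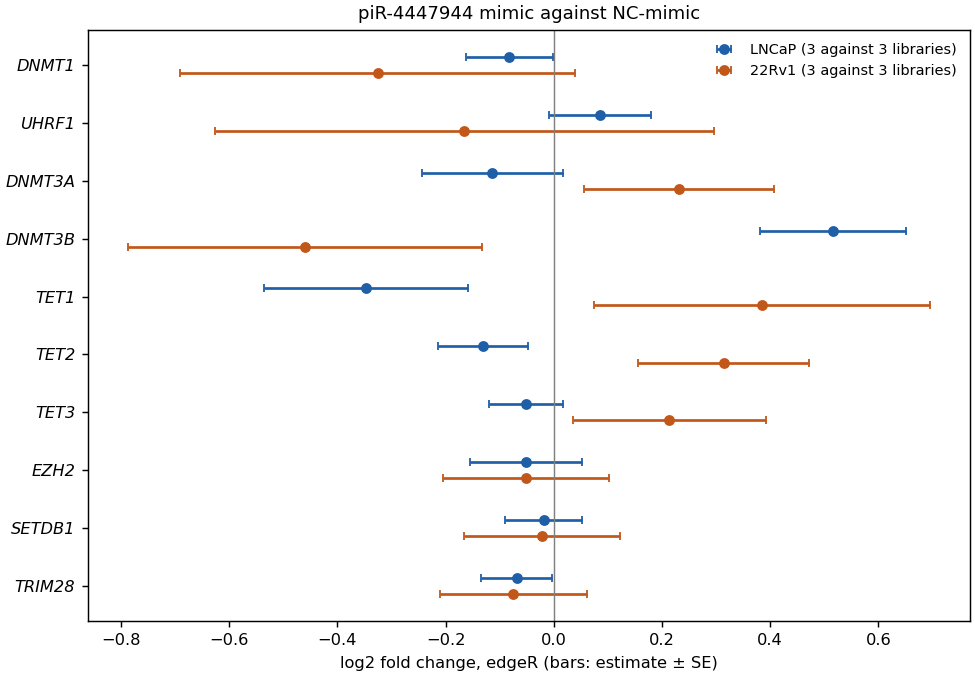
Log2 fold change of each gene with the piR-4447944 mimic against NC-mimic in LNCaP (blue) and 22Rv1 (orange), from edgeR, with bars of 1 SE. DNMT3B is at 0.52 in LNCaP and at -0.46 in 22Rv1, and the 22Rv1 bars of DNMT1 and UHRF1 are the widest of the 10.

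Over both lines together no gene of the 10 met the rule for the mean effect of the mimic, against 1.54% of all genes tested. The log2 fold changes ran from -0.20 ± 0.20 for DNMT1 to 0.10 ± 0.11 for TET2, and no unadjusted p was under 0.05 in edgeR or in DESeq2. The difference of the effect between the lines, 22Rv1 minus LNCaP, met the rule for DNMT3B and TET2, against 3.26% of all genes tested, of which 610 of 18720 had an unadjusted p under 0.05 and none an adjusted p under 0.05. These fits use the same 12 libraries as the fits within a line. For DNMT3B the difference was -0.97 ± 0.37 (adjusted p = 1, edgeR), and for TET2 it was 0.45 ± 0.18 (adjusted p = 1, edgeR). Without replicate 3 of 22Rv1 the difference was -0.53 for DNMT3B (adjusted p = 0.817, edgeR) and 0.27 for TET2 (adjusted p = 0.845, edgeR), and neither was called. DNMT3B also lost its call without LNCaP NC-mimic replicate 1 or without 22Rv1 NC-mimic replicate 3, and TET2 without LNCaP NC-mimic replicate 1 or 2, LNCaP mimic replicate 2 or 3, 22Rv1 NC-mimic replicate 2 or 3, or 22Rv1 mimic replicate 3. TET1 had a difference of 0.74 ± 0.37, the largest above 0 among the 10, and was called only without replicate 1 of 22Rv1 in either group (adjusted p = 1 with all libraries, edgeR).

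Between the lines, with NC-mimic, 5 of the 10 genes were higher in 22Rv1 and none was lower at an adjusted p under 0.05. Of all 17497 genes tested, 58.4% were called, 30.9% higher and 27.5% lower, so that the count of calls is near the share among all genes. EZH2 had the largest difference, 3.25-fold, with 20.4, 24.4 and 19.04 TPM in LNCaP and 70.9, 62.7 and 54.6 TPM in 22Rv1. The lowest 22Rv1 library was above the highest LNCaP library by a wide gap. Its log2 fold change was 1.70 ± 0.14 (adjusted p = 2.57e-05, edgeR). The ratio of EZH2 to EZH1 TPM, EZH1 being the other catalytic subunit of PRC2, was between 0.712 and 1.06 in LNCaP libraries and between 1.85 and 4.22 in 22Rv1 libraries.

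UHRF1 was 1.86-fold higher in 22Rv1 with NC-mimic, with 20.9, 21.0 and 19.5 TPM in LNCaP and 39.1, 33.3 and 32.2 TPM in 22Rv1 (log2 fold change 0.89 ± 0.11, adjusted p = 0.000224, edgeR). DNMT1, its partner in copying methylation, was 1.46-fold higher, with 59.4, 59.2 and 55.9 TPM in LNCaP and 98.5, 86.4 and 76.6 TPM in 22Rv1 (0.55 ± 0.12, adjusted p = 0.00506, edgeR). The groups of both genes did not overlap. With the spread estimated over all 12 libraries neither was called, UHRF1 at 0.90 (adjusted p = 0.0526, edgeR) and DNMT1 at 0.56 (adjusted p = 0.116, edgeR). DNMT3B was 1.77-fold higher (0.82 ± 0.25, adjusted p = 0.022, edgeR), with the lowest 22Rv1 library, at 3.96 TPM, close to the highest LNCaP library, at 3.78 TPM. Its call was lost without LNCaP replicate 1 (adjusted p = 0.0869, edgeR), without LNCaP replicate 2 (0.0812) or without 22Rv1 replicate 2 (0.056). TRIM28 was 1.31-fold higher (0.39 ± 0.09, adjusted p = 0.00764, edgeR), with 421, 457 and 381 TPM in LNCaP and 557, 545 and 551 TPM in 22Rv1. These 5 genes were those of the 10 whose groups did not overlap by CPM, against 67.2% of all genes. DNMT3A, SETDB1 and the 3 TET genes were not called, with log2 fold changes between -0.23 for TET1 and 0.11 for DNMT3A, though TET3 was called without 22Rv1 replicate 3 (adjusted p = 0.0273, edgeR).

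In the mimic libraries, 3 of the 10 genes were called between the lines, all higher in 22Rv1, against 52.4% of all 17283 genes, 28.2% higher and 24.2% lower. EZH2 again had the largest difference, 1.72 ± 0.12 on the log2 scale (adjusted p = 7.4e-05, edgeR). TRIM28 was at 0.40 ± 0.11 (adjusted p = 0.018, edgeR) and TET3 at 0.38 ± 0.10 (adjusted p = 0.0208, edgeR). Both TRIM28 (adjusted p between 0.0539 and 0.0851) and TET3 (between 0.0644 and 0.0915) lost their calls without any single library other than replicate 3 of 22Rv1. The 3 genes called and TET2 had groups that did not overlap by CPM, against 64.5% of all genes. DNMT1, UHRF1 and DNMT3B were not called, at 0.32 ± 0.35, 0.65 ± 0.47 and -0.13 ± 0.25. Without replicate 3 of 22Rv1 with the mimic, 6 genes were called, and UHRF1 was at 1.06 and DNMT1 at 0.66, while DNMT3B was at 0.08 and was not called (adjusted p = 0.649, edgeR). The sixth gene called was DNMT3A, at 0.27 (adjusted p = 0.0474, edgeR).

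**Figure D4:**
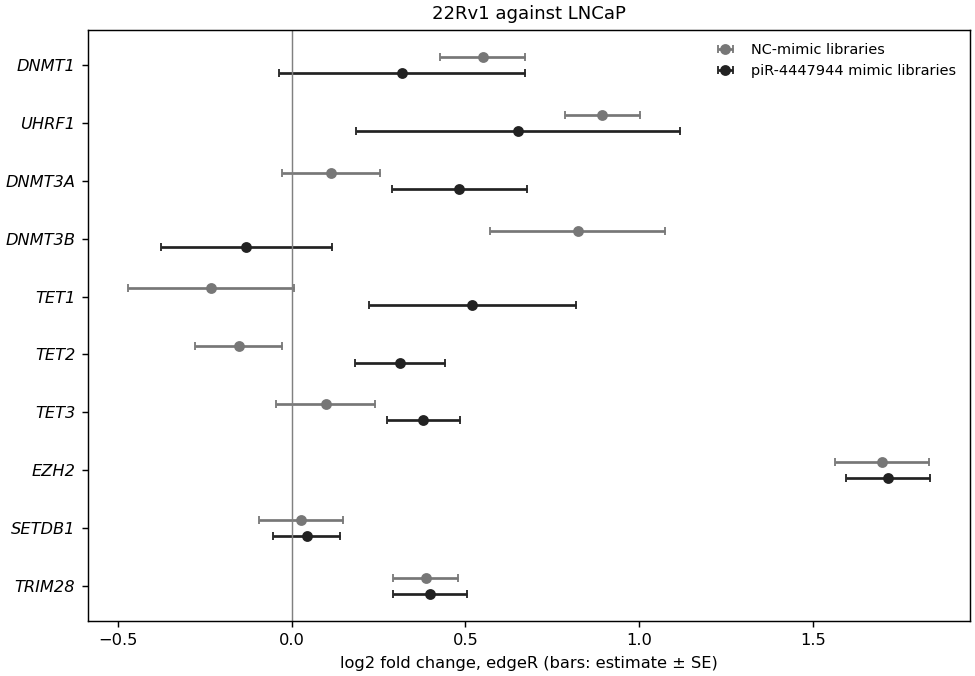
Log2 fold change of each gene in 22Rv1 against LNCaP, from edgeR, in NC-mimic libraries (grey) and in piR-4447944 mimic libraries (black), with bars of 1 SE. EZH2 is at 1.70 and 1.72, and DNMT3B is at 0.82 with NC-mimic and -0.13 with the mimic.

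Among the TET genes, TET3 was the highest and took between 48.3% and 58.8% of the summed TET TPM in all libraries. The sum was between 16.2 and 18.3 TPM in LNCaP and between 13.7 and 21.1 TPM in 22Rv1. The 3 libraries of LNCaP with the mimic had sums of 16.8, 16.9 and 16.2 TPM, below the 18.2, 18.3 and 17.2 TPM of the controls, and no TET gene was called there. Of single genes, 7.95% had groups in LNCaP that did not overlap by CPM, and the share among sums was not counted. TET3, the largest part, had overlapping groups and a log2 fold change of -0.05. In 22Rv1 the sums were 19.4, 19.5 and 13.7 TPM with NC-mimic and 20.3, 20.8 and 21.1 TPM with the mimic, and the lowest was that of NC-mimic replicate 3. The ratio of DNMT1 to UHRF1 TPM was between 2.06 and 2.86 in all libraries but replicate 3 of 22Rv1 with the mimic, where it was 3.87.

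The partners of these enzymes were examined as 6 lists of 69 genes, of which 68 were tested. With the mimic no gene of the 6 lists was called in LNCaP, in 22Rv1 or for the mean effect (edgeR). Without replicate 3 of both 22Rv1 groups, 4 were called higher in 22Rv1, against 2.47% of all genes. They were UHRF2 of the DNA methylation partners (0.32), BMI1 of PRC1 (0.27) and TASOR (0.27) and ATF7IP (0.29) of the lysine 9 list, with adjusted p = 0.976 for each (edgeR). Without replicate 3 of the mimic alone they were BMI1 (0.36) and TASOR (0.39), and these genes are named after their values were seen. For the difference of the effect between the lines, 3 of 68 were called, against 3.26% of all genes, and all were in PRC1, the complex that binds the mark of EZH2. They were PCGF2 (0.44), BMI1 (0.42) and, outside the rule for named genes and chosen after its value was seen, PHC3 (0.37), with adjusted p = 1 for each (edgeR). Without replicate 3 of both 22Rv1 groups none of the 16 PRC1 genes was called, and ATF7IP was called higher (0.37, adjusted p = 0.799, edgeR). The median log2 fold change with the mimic lay between -0.05 and 0.02 for the 6 lists in LNCaP, beside 0.00 over all genes. In 22Rv1 the demethylases had a median of 0.63, with 7 of 7 genes above 0, and without replicate 3 with the mimic the median was 0.01, with 4 of 7 above 0. The S phase genes had a median of -0.27 in 22Rv1, with 0 of 19 above 0, 0.11 without that library, with 14 of 19 above 0, and -0.03 without replicate 3 of both groups, with 5 of 19 above 0. In LNCaP 5 of 19 were above 0, with a median of -0.05. None of the 19 was called in either line.

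Between the lines with NC-mimic, 22 of 68 partner genes were called higher in 22Rv1 and 20 lower, beside 30.9% and 27.5% of all genes, so that the counts are near those of all genes. The DNA methylation partners had 4 higher and 3 lower of 13, led upwards by HELLS, a chromatin remodeller needed for DNA methylation, at 77.9 to 96.4 TPM in 22Rv1 and 16.9 to 18.9 TPM in LNCaP (log2 fold change 2.18). The PRC2 partners had 4 higher and 2 lower of 10, with PHF19 at 1.88 and JARID2, at 2.90 to 5.11 TPM in 22Rv1 and 10.96 to 11.6 TPM in LNCaP, at -1.46. The demethylases had 1 higher and 4 lower of 7, and the lowest was KDM6A, which removes the mark of EZH2, at 7.15 to 12.7 TPM in 22Rv1 and 113 to 131 TPM in LNCaP (-3.65, adjusted p = 1.25e-06, edgeR). PRC1 had 5 higher and 5 lower of 16, the lysine 9 methylation list 5 and 3 of 13, and the NuRD and HDAC list 3 and 3 of 9. The S phase genes were higher in 19 of 19, with a median of 1.16, beside 0.01 over all genes. In the mimic libraries 19 partner genes were higher and 12 lower, beside 28.2% and 24.2% of all genes, led by HELLS (1.95) and PHF1 (1.54), a PRC2 cofactor, and by KDM6A (-3.42) and CBX2 (-1.31), a PRC1 subunit. There 6 of 19 S phase genes were called higher, and 19 of 19 without replicate 3 of 22Rv1 with the mimic.

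The genes whose pattern over the 12 libraries was most like that of each member were found by the root mean square difference of log2 CPM, each gene centred on its mean, among 12527 genes. For DNMT1 they were ZWILCH (0.0709) and TACC3 (0.083), and for UHRF1 ARHGAP11A (0.0999) and CDC20 (0.105). For DNMT3A they were NAV1 (0.109) and ELMO3 (0.111), and for DNMT3B WWOX (0.169) and NDUFAF2 (0.174). For TET1 they were STK17B (0.179) and ZNF570 (0.186), for TET2 ZBTB40 (0.0752) and FAM193A (0.0838), and for TET3 PTPN23 (0.0498) and CPSF1 (0.0717). For EZH2 they were BAG1 (0.0766) and RRP15 (0.0933), for SETDB1 RPLP0 (0.0532) and E2F4 (0.0657), and for TRIM28 HNRNPL (0.0573) and PIGS (0.0618). As each gene was centred, a small value means a like pattern over the libraries, and not a like level. DNMT3B and TET1 had the largest values, on the fewest counts.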

How the data were processed

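Reads were aligned by the authors with STAR 2.7.1a (hg38), and gene values came from RSEM 1.3.0, per the submitters' processing notes. The deposited expected counts are estimates of the reads of each gene and carry no normalization. They were rounded here to whole numbers. The deposited TPM take account of transcript length and hold no depth. The length column the authors deposited is a mean over isoforms. The depth was 12161091 to 22179601 counts per library. Trimming and strand are not given in the sources used here.

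Tests on counts used edgeR 4.0.16 under R 4.3.3 (TMM, filterByExpr, glmQLFit, glmQLFTest), over the libraries of each comparison. Mimic effects were called by the study's cut-offs on unshrunken estimates (the study shrank DESeq2 fold changes), line differences by an adjusted p under 0.05. SEs come from the estimate and the test statistic. All 10 genes passed the filter. The fits of some comparisons, not of all, were tested on simulated counts. Alternatives were DESeq2 1.42.0, limma 3.58.1 on log2(TPM + 1) or log2(TPM + 0.1), other filters and scaling, the replicate block and libraries left out. The genes and lists were chosen with earlier results of these data known. From the partner lists, at most 4 called genes per comparison were named, 2 higher and 2 lower, with the largest fold changes. Some cell type markers are not reported here.

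Deviations of libraries with the same replicate number from their group means correlated at 0.283, 0.225 and 0.429 in 22Rv1. All were over 0.1, so 22Rv1 values are also given by replicate number, with a blocked fit. The main fits are unpaired, and the labels do not say that libraries of like number are paired. Libraries of unlike number also correlated there, at 0.269 (NC-mimic 1 with mimic 2) and 0.142 (NC-mimic 2 with mimic 1). Pairs of replicate 3 with 1 or 2 were below 0. The values set replicate 3 apart and do not show that 1 and 2 match by number. In LNCaP libraries with the same number correlated at 0.046, 0.027 and 0.251. Between the lines some values were under 0.1, so neither of these was taken as paired.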

Additional observations from a re-analysis of the deposited data

Results flagged for a closer look

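DNMT3B, TET2 and TET3 are given here because every mimic library lay on one side of the control mean in LNCaP and on the other side in 22Rv1. DNMT3B was above it by 0.43, 0.54 and 0.58 in log2 CPM in LNCaP and at -0.33, -0.08 and -0.96 in 22Rv1, with a difference of the effect of -0.97 (22Rv1 minus LNCaP, adjusted p = 1, edgeR). TET2 was at -0.09, -0.16 and -0.13 in LNCaP and at 0.22, 0.17 and 0.56 in 22Rv1, with a difference of 0.45 (adjusted p = 1, edgeR). TET3 was at -0.07, -0.05 and -0.04 in LNCaP and at 0.31, 0.34 and 0.04 in 22Rv1, with a difference of 0.27 (adjusted p = 1, edgeR). No difference passed adjustment. The rule for showing these genes takes no account of the spread of the controls, and the share of all genes that meet it was not counted. In 22Rv1 the controls ran from -0.496 to 0.405 for DNMT3B, from -0.109 to 0.197 for TET2 and from -0.339 to 0.17 for TET3. Some mimic values of each gene lay within these ranges. In LNCaP the same was so for TET2 and TET3, and not for DNMT3B.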

How the results depend on the processing

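In LNCaP the count of 1 gene called went to 0 with all 12 libraries in one fit, with shrunken DESeq2 fold changes, and with limma on log2(TPM + 1) without a filter, and was 1 in every fit that left out a library. In 22Rv1 the count of 0 went to 1, TET2, with all 12 libraries in one fit (0.32, adjusted p = 0.731, edgeR), and was 0 without any library. The count for the mean effect was 0 in all 23 alternatives. For the difference between the lines the count of 2 was 1 with limma on log2(TPM + 1), 0 with log2(TPM + 0.1), 0 without the TPM filter, 0 without replicate 3 of 22Rv1, and between 0 and 3 with a library left out. Between the lines with NC-mimic the count of 5 was 3 with all 12 libraries in one fit, without UHRF1 and DNMT1, and between 4 and 6 with a library left out. With the mimic the count of 3 was 1 with limma on log2(TPM + 1) without a filter, 6 without replicate 3 of 22Rv1, and between 1 and 6 with a library left out. In the mimic comparison in 22Rv1, with a library left out, the log2 fold change ran from -0.555 to 0.018 for DNMT1 and from -0.512 to 0.247 for UHRF1, above 0 only without replicate 3 with the mimic, and for UHRF1 it was 0.177 without replicate 3 of both groups. The difference of DNMT3B between the lines with the mimic ran from -0.332 to 0.083, and was 0.083 without replicate 3 of 22Rv1. With the replicate block the counts were 1 in LNCaP, 0 in 22Rv1, 0 for the mean, 2 for the difference, 5 with NC-mimic and 4 with the mimic, where DNMT3A joined (adjusted p = 0.0222, edgeR). Shrinkage was not run for the difference between the lines. Depth limits TET1 and DNMT3B most, and a count of 0 allows up to 0.135 to 0.247 CPM (3 counts per library), for counting error only.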

Other observations

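Genes that DNA methylation is known to silence differed between the lines in both directions. They were taken from a list of 16 germline genes, of which those named were chosen after their values were seen, and from a list of 5 genes often methylated in prostate cancer. With NC-mimic, MAGEA4 was at 232 to 246 TPM in 22Rv1 and 3.79 to 4.88 TPM in LNCaP, MAGEA1 at 72.2 to 86.1 and 1.67 to 1.89 TPM, and CTAG2 at 203 to 249 and 0.00 to 0.16 TPM. MAGEA10 went the other way, at 0.00 to 0.10 TPM in 22Rv1 and 33.2 to 37.5 TPM in LNCaP. Some genes of the MAGEA and CTAG families have near-identical copies, and the counts of such genes are uncertain. Summed expected counts with NC-mimic were whole numbers for MAGEA1 (4612 in 22Rv1 and 107 in LNCaP) and MAGEA4 (12918 and 252). They were not for CTAG2 in 22Rv1 (5177.2) or MAGEA10 in LNCaP (2696.5). Of the germline list, 5 of 8 genes tested were called higher in 22Rv1 and 1 lower, beside 30.9% and 27.5% of all genes. With the mimic no germline gene was called in either line (edgeR, 7 tested in each). For the difference of the effect between the lines PAGE1, named after its value was seen, was called lower (adjusted p = 1, edgeR), at 0.26 to 0.42 TPM with NC-mimic and listed at 0 in every mimic library of 22Rv1, on 5 and 0 expected counts in all, and at 1.02 to 2.80 and 2.92 to 4.39 TPM in LNCaP, on 34 and 55. GSTP1 had 0 expected counts in all 12 libraries. RARB was at 2.84 to 4.54 TPM in 22Rv1 and 2.17 to 4.24 TPM in LNCaP with NC-mimic, RASSF1 at 30.4 to 33.3 and 20.6 to 22.1 TPM, and APC at 8.56 to 12.5 and 16.2 to 21.3 TPM. PTGS2 was at 0.19 to 3.38 and 0.38 to 0.74 TPM. With the mimic in 22Rv1 it was not called (-1.37). Without mimic replicate 3 it was called lower (-3.02, adjusted p = 0.979, edgeR), against 1.28% of all genes. These levels are summed over isoforms, and DNA methylation was not measured.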
